A study of Mus musculus with 12 samples.

Results

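The genes described are Apobec1, Apobec3, Adar and Adarb1, 4 of the 19057 genes named on the array, which encode the cytidine and adenosine deaminases best known for editing nucleic acids. Their members were the probes annotated to 1 of these symbols alone, and there were 9 such probes among 45281. Apobec1 and Apobec3 had 1 and 2 probes, and Adar and Adarb1 had 5 and 1. Apobec1 was chosen by its measured intensity, which was low with KLA and higher again with KLA plus hBD3, so its levels in those comparisons are given as a description with no test. Only its comparison of hBD3 with untreated cells was tested, and the other 3 genes were tested throughout.

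BM-derived macrophages (BMDM) from Balb/c mice, grown in M-CSF at 20 ng/ml and rested overnight without it, were measured 6 h after treatment on Illumina MouseWG-6 BeadChips. The 4 groups of 3 arrays were KLA plus hBD3, KLA alone at 50 ng/ml, hBD3 alone, and untreated BMDM. KLA is Kdo2-lipid A, the part of bacterial lipopolysaccharide that TLR4 recognises, and hBD3 is human beta-defensin 3, a cationic host defence peptide of epithelia. The design text describes 3 biological replicates per condition. A figure legend of the study says that each treatment was done on 3 separate mice, but not whether treatments shared mice. The labels name no single mouse, so p-values measure the spread between these samples. The labels give the hBD3 dose in mg/ml, whereas the methods of the study give it in micrograms per ml, and the label of the combined group gives no dose. Replicates 2 and 3 of KLA have hBD3 in their titles, while their treatment labels and table headings name no hBD3. All 11 macrophage marker genes with a probe were detected in all 12 arrays, and none of the B-cell, T-cell and NK-cell markers was detected in all arrays of any group. The hBD3 replicate 3 array stood apart in its stromal markers, whose mean log2 intensity was 7.84, against 5.97 to 6.33 in the other 11 arrays.

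APOBEC1 deaminates cytidine to uridine in messenger RNA. It was found through the edited codon in the apolipoprotein B transcript of intestine, and in mouse macrophages it edits sites in the 3′ untranslated parts of many transcripts, together with RNA-binding cofactors. APOBEC3 deaminates cytidines of viral DNA and restricts retroviruses, and in mice its form and level differ between strains. ADAR, also called ADAR1, deaminates adenosine to inosine in double-stranded RNA and keeps the RNA of the cell from setting off its own RNA sensors. One of its isoforms is made from an interferon-inducible promoter. ADARB1, also called ADAR2, recodes neuronal transcripts such as those of glutamate receptors.

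RefSeq start sites on the GRCm38.p6 assembly, a C57BL/6J sequence and not that of Balb/c, gave 7 windows for the 4 genes, each of 300 bases around the start site. Both strands were searched for GAANNGAAA, which resembles an interferon-stimulated response element, and for GAGGAAG, which resembles a PU.1 site. They were found in 7.52% and 13.6% of 32851 such windows of the genome. A match is a run of letters and not a shown binding site. GAANNGAAA occurred in 1 of 2 Apobec3 windows and in 1 of 3 Adar windows, and the Adar window also held 2 copies of GAGGAAG, a motif that occurred once in the other Apobec3 window. None of these matches overlapped another. The 30 bases around each GAANNGAAA match, with the match in capitals, show how both genes carry it near a start site. The Apobec3 match is read on the opposite strand. The windows of Apobec1 and Adarb1 held neither motif. The 250 bases before the Apobec1 start site used here are printed because Apobec1 had the largest differences between groups of the 4 genes. The annotated span of Apobec1 reaches chr6:122603024, so the printed bases lie within it and that outer end was not searched.
Apobec3, chr15:79892428-79892457, plus strand: ttggcccgggaggtcagTTTCACTTCtggg
Adar, chr3:89730736-89730765, plus strand: ccttttcaagGAAACGAAAgtgaactctgg
Apobec1, chr6:122602445-122602694, minus strand: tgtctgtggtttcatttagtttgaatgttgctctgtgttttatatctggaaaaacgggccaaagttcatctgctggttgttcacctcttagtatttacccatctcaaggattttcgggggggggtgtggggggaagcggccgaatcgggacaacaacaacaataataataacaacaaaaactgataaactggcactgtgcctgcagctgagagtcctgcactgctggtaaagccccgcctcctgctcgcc

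Apobec1 was abundant in untreated BMDM, and its intensity was about 10.3-fold lower with KLA and 6.06-fold higher with KLA plus hBD3 than with KLA. Values are normalized intensities, given on a linear scale unless log2 is named. Apobec1 measured 5649, 4574 and 8947 in the 3 arrays of KLA plus hBD3, and 929, 1167 and 956 in the 3 arrays of KLA. It measured 10553, 11709 and 9433 with hBD3 alone, against 9983, 10982 and 10236 in untreated cells. All KLA arrays lay below every other array, all arrays of KLA plus hBD3 lay between them and the rest, and the arrays of hBD3 and untreated cells overlapped. On the log2 scale the means were 12.58 ± 0.50 with KLA plus hBD3, 9.98 ± 0.18 with KLA, 13.36 ± 0.16 with hBD3 and 13.34 ± 0.07 in untreated cells (SD, n = 3 each). KLA plus hBD3 was the group with the widest spread, since its replicate 3 stood near the untreated level and its other replicates further below.

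**Figure D1:**
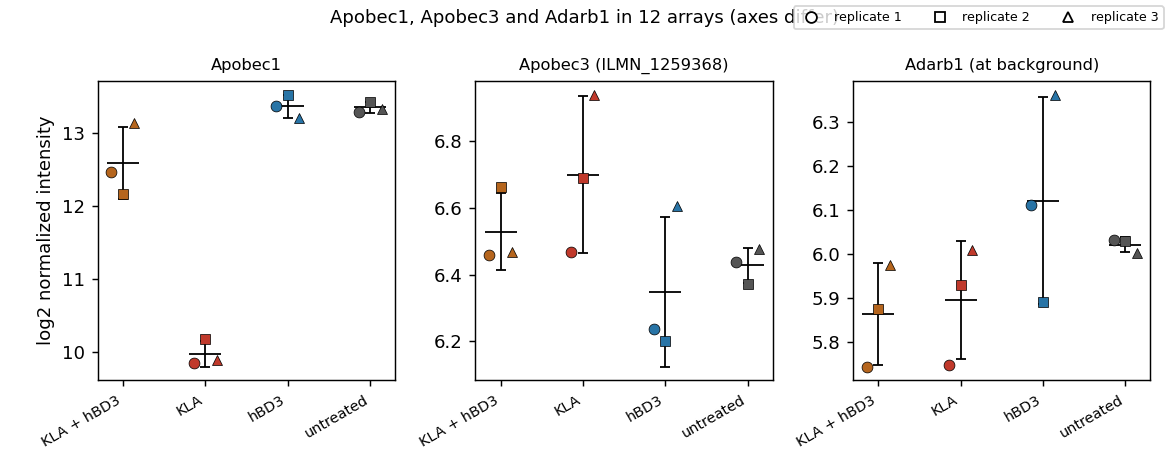
Log2 normalized intensity (vertical axes, which differ between panels) of Apobec1, the detected Apobec3 probe and Adarb1 in the 4 groups (horizontal axis). Each point is 1 array, its shape gives the replicate number, and bars show the mean ± SD of 3 arrays. The 3 KLA arrays of Apobec1 lie between 929 and 1167 on the linear scale, below the 9 other arrays, and the points of Apobec3 and Adarb1 overlap between KLA and untreated cells.

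Set against untreated cells, the log2 change of Apobec1 was -3.36 ± 0.19 with KLA and -0.76 ± 0.19 with KLA plus hBD3 (SE from the fit to all 12 arrays). Mean intensity stood at 61.4% of the untreated mean with KLA plus hBD3, at 9.78% with KLA and at 102% with hBD3 alone. The 3 replicates of KLA plus hBD3 stood at 54.3%, 44.0% and 86.0% of the untreated mean. Replicate 3 alone came close to the untreated arrays. Of the difference between KLA and untreated cells, 77.4% was absent with KLA plus hBD3 on the log2 scale and 57.3% on the linear scale. The log2 difference between KLA plus hBD3 and KLA was 2.60 ± 0.19, and without replicate 3 of KLA plus hBD3 it was 2.33. The log2 difference from hBD3 alone was -0.78 for KLA plus hBD3. With hBD3 alone the change from untreated cells was 0.02 ± 0.19 on the log2 scale (limma, adjusted p = 0.994), with a 95% interval of -0.41 to 0.44.

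Before normalization, the signal of Apobec1 averaged 4977 ± 2406 with KLA plus hBD3, 796 ± 20.5 with KLA, 11320 ± 1328 with hBD3 and 12583 ± 1578 in untreated cells (SD, n = 3 each). These were 39.6%, 6.33% and 90.0% of the untreated mean for KLA plus hBD3, KLA and hBD3. KLA stayed lowest and KLA plus hBD3 next, and the level with KLA plus hBD3 was further from untreated than after quantile normalization. The mean signal over all probes before normalization ran from 177 to 241 in the arrays of KLA plus hBD3, 185 to 230 in those of KLA, 255 to 278 in those of hBD3 and 260 to 365 in untreated arrays. Centring each array on its median in place of quantile normalization gave log2 changes of -3.72 with KLA and -1.24 with KLA plus hBD3 for Apobec1. The mean log2 level of the macrophage markers, 10.60 to 10.85 with KLA plus hBD3, was 10.05 to 10.29 with KLA, 10.63 to 10.92 with hBD3 and 10.59 to 10.89 in untreated cells, and the part of this in the Apobec1 values was not tested. Summed over all 9 neutrophil markers with a probe, of which 2 were detected, intensity was 667 to 831 with KLA plus hBD3, 876 to 1392 with KLA, 656 to 711 with hBD3 and 606 to 677 in untreated cells. Summed over all 8 dendritic cell markers, of which 1 was detected, it was 469 to 497 with KLA plus hBD3, 608 to 732 with KLA, 517 to 533 with hBD3 and 473 to 518 in untreated cells. These sums include the background signal of the markers not detected, and their part was not tested either. In bulk RNA, fewer cells of a type and less RNA per cell cannot be told apart.

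Apobec3 was dim, and no difference between groups passed the test. The brighter of its probes, ILMN_1259368, was detected in 12 of 12 arrays. It measured 87.9, 101 and 88.5 with KLA plus hBD3, and 88.6, 103 and 123 with KLA. It measured 75.4, 73.6 and 97.4 with hBD3, against 86.6, 82.9 and 89.0 in untreated cells. The 4 groups overlapped, with the highest single array in KLA and the lowest in hBD3. The log2 change was 0.27 ± 0.13 with KLA (adjusted p = 0.232), with a 95% interval of -0.01 to 0.55. It was 0.10 ± 0.13 with KLA plus hBD3 (adjusted p = 0.805) and -0.08 ± 0.13 with hBD3 (adjusted p = 0.934), each against untreated cells. The other Apobec3 probe, ILMN_1237789, was detected in 0 of 12 arrays, so it gave no level to compare.

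Adarb1, whose product acts mainly in neurons, was at background in these macrophages. Its probe was detected in 2 of 12 arrays, both of hBD3. It measured 53.5, 58.7 and 62.9 with KLA plus hBD3, 53.7, 61.0 and 64.4 with KLA, 69.1, 59.4 and 82.3 with hBD3, and 65.5, 65.4 and 64.1 in untreated cells. The signal was not well above background in any array of the other groups, and no change was called.

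Adar was measured by 5 probes that did not behave alike, and 3 of them were called between KLA and untreated BMDM, 2 higher and 1 lower. These 3 were all the calls among the 8 probes other than that of Apobec1, whereas 14.8% of all probes were called in that comparison, 6.84% higher and 8% lower. That share includes probes not detected. A fit over the 14495 probes detected in all arrays of a group called 6650 of them. Probe ILMN_2489167 measured 400, 273 and 247 with KLA plus hBD3, and 635, 468 and 487 with KLA. It measured 261, 293 and 210 with hBD3, against 292, 251 and 282 in untreated cells. All KLA arrays were above all arrays of the other 3 groups, which overlapped with each other. Its log2 change with KLA was 0.94 ± 0.18 against untreated cells (limma, adjusted p = 0.00339), and KLA plus hBD3 was lower than KLA by -0.81 ± 0.18 (adjusted p = 0.0172). Leaving out replicate 2 or 3 of KLA plus hBD3, or replicate 1 of KLA, ended the second call (adjusted p = 0.0774 to 0.0819).

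Probe ILMN_2704372 is the single Adar probe annotated to another RefSeq transcript than the rest. It measured 235, 278 and 211 with KLA plus hBD3, and 277, 266 and 334 with KLA. It measured 144, 181 and 214 with hBD3, against 171, 188 and 185 in untreated cells. The KLA arrays were all above the untreated arrays, and those of KLA plus hBD3 overlapped with KLA and were also all above untreated. The log2 change was 0.68 ± 0.14 with KLA (limma, adjusted p = 0.00607) and 0.40 ± 0.14 with KLA plus hBD3 (adjusted p = 0.177), each against untreated cells. KLA plus hBD3 differed from KLA by -0.28 ± 0.14 (adjusted p = 0.414).

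The brightest Adar probe, ILMN_3093622, had an SD of 1.01 on the log2 scale with KLA and 0.72 with hBD3, against 0.061 with KLA plus hBD3 and 0.30 in untreated cells (n = 3 each). It measured 736, 701 and 677 with KLA plus hBD3, and 819, 724 and 229 with KLA. It measured 396, 402 and 168 with hBD3, against 498, 362 and 338 in untreated cells. Replicate 3 was the lowest array of each group, and in KLA and hBD3 it was far below the others. The change with KLA was 0.39 ± 0.44 on the log2 scale (limma, adjusted p = 0.694). Without the replicate 3 arrays of KLA, hBD3 and untreated cells, an alternative listed with earlier results known, it was 0.86 (adjusted p = 0.000801). Under that alternative KLA plus hBD3 was 0.73 above untreated cells (adjusted p = 0.00467), against 0.84 ± 0.44 with all arrays (adjusted p = 0.402).

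Probe ILMN_3021272 measured 593, 461 and 443 with KLA plus hBD3, and 836, 765 and 586 with KLA. It measured 330, 280 and 208 with hBD3, against 714, 285 and 345 in untreated cells. The untreated group overlapped with KLA only through its replicate 1, which was well above the other untreated arrays. The change with KLA was 0.80 ± 0.29 on the log2 scale (limma, adjusted p = 0.10) and 1.20 without untreated replicate 1 (adjusted p = 0.0026). That was the only 1 of the 12 fits leaving out 1 array to call it. Over those fits the change ran from 0.54 to 1.20 (adjusted p = 0.0026 to 0.331). With the replicate number as a block the change was called (adjusted p = 0.00963). Deviations of same-numbered arrays of KLA and untreated cells correlated at r of 0.44, 0.31 and 0.67. With hBD3 alone the change from untreated cells was -0.62 ± 0.29 (adjusted p = 0.697).

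The dimmest Adar probe, ILMN_2441249, ran opposite to the rest with KLA. It measured 114, 115 and 103 with KLA plus hBD3, and 57.8, 66.9 and 48.6 with KLA, where it was detected in 0 of 3 arrays. It measured 84.8, 89.8 and 51.9 with hBD3, where it was detected in 2 of 3 arrays, against 124, 106 and 74.2 in untreated cells. KLA lay below both untreated cells and KLA plus hBD3 without overlap, and its own level there has only a bound. Set against the lowest signal detected on each array, KLA was at least 1.29-fold lower than untreated cells, and KLA plus hBD3 at least 1.44-fold higher than KLA. These bounds were not tested. By the measured values, with KLA below detection, limma called the log2 changes of -0.79 (adjusted p = 0.0289) and 0.95 (adjusted p = 0.0201). The first call was lost in 4 of the 12 fits that left out 1 array, those without KLA replicate 1 or 3 and without untreated replicate 1 or 2 (adjusted p = 0.0724 to 0.123). The second was also lost in 4, those without KLA plus hBD3 replicate 1 or 2 and without KLA replicate 1 or 3 (adjusted p = 0.0623 to 0.0747), and also after median centring, where the log2 difference was 0.77 (adjusted p = 0.256) against 0.95. With neqc, another background correction and normalization, the log2 differences were -1.37 for KLA against untreated cells (adjusted p = 0.0420), against -0.79, and 1.65 for KLA plus hBD3 against KLA (adjusted p = 0.0325).

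**Figure D2:**
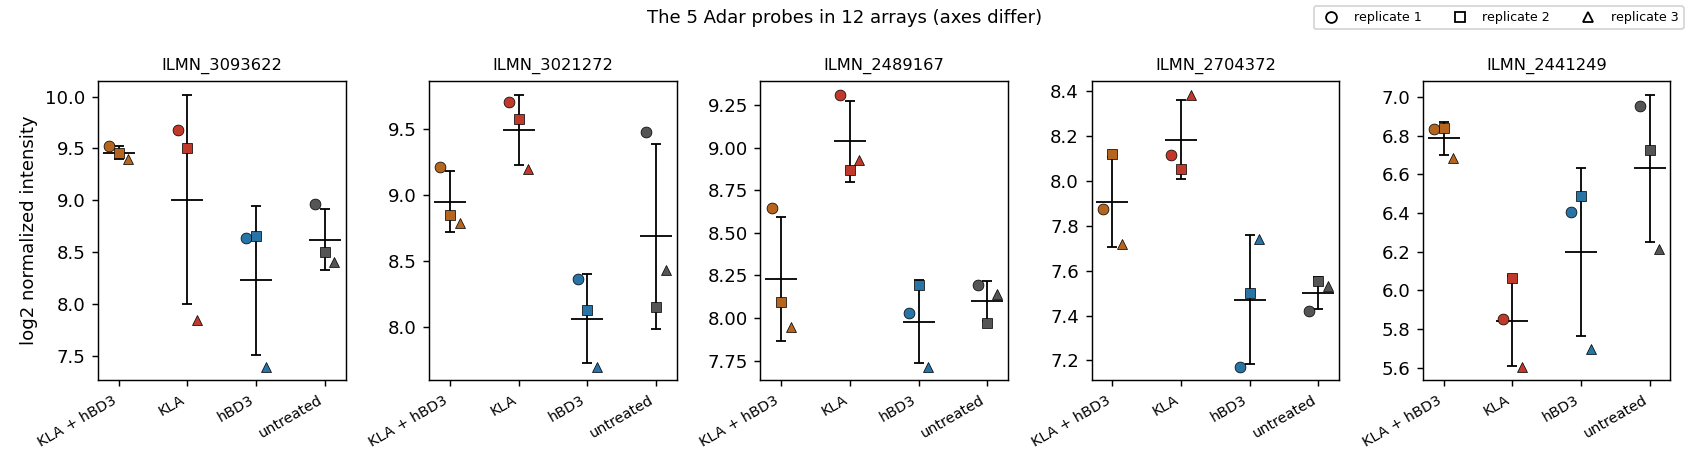
Log2 normalized intensity (vertical axes, which differ between panels) of the 5 Adar probes in the 4 groups (horizontal axis), with 1 point per array, the shape giving the replicate number, and bars for the mean ± SD of 3 arrays. KLA lies above untreated cells without overlap for ILMN_2489167 and ILMN_2704372 and below them for ILMN_2441249, where the KLA points were not detected.

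In the comparison of KLA plus hBD3 with KLA, 2 of the 8 probes other than that of Apobec1 were called, 1 higher and 1 lower, both of Adar, where 6.99% of all probes were called, 3.5% higher and 3.48% lower. The fit over detected probes alone called 3470 of 14495 there. With KLA plus hBD3 against untreated cells 0 of the 8 were called, where 4.39% of all probes were, and 1 of them had an unadjusted p under 0.05. Against hBD3 alone, KLA plus hBD3 gave 0 calls where 5.35% of all probes were called, and all 5 Adar probes were higher. An unadjusted p under 0.05 was found for 5 of the 8, which were not the same 5. They included Adarb1, which was at background and lower (-0.26, limma, unadjusted p = 0.0426), but not ILMN_2489167 of Adar (unadjusted p = 0.195). Over all 19057 genes by brightest probe, 3853 had such a p against untreated cells and 4099 against hBD3. A fit with the replicate number as a block called 3 of the 8 there, the Adar probes ILMN_3093622, ILMN_3021272 and ILMN_2441249 (adjusted p = 0.0120 to 0.0224). It called 3580 of all 45281 probes in that comparison. The block has little ground in these 2 groups. Deviations of their same-numbered arrays from the group means correlated at r of 0.28, 0.039 and 0.0034. With hBD3 alone against untreated cells limma called 0 of the 8, with 0 at an unadjusted p under 0.05, where 0.00442% of all probes were called, 2 in number against 15 with the block. All 5 Adar probes were lower with hBD3 than in untreated cells, by -0.03 to -0.62 on the log2 scale, and this difference did not pass the test. Of these 5, ILMN_2489167 turned to 0.03 without the replicate 3 arrays of KLA, hBD3 and untreated cells, and 3 turned positive without a single array. In the interaction, the effect of hBD3 in KLA-treated cells less that in resting cells, 1 of the 8 was called, where 3.41% of all probes were, and it was ILMN_2441249 of Adar.

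**Figure D3:**
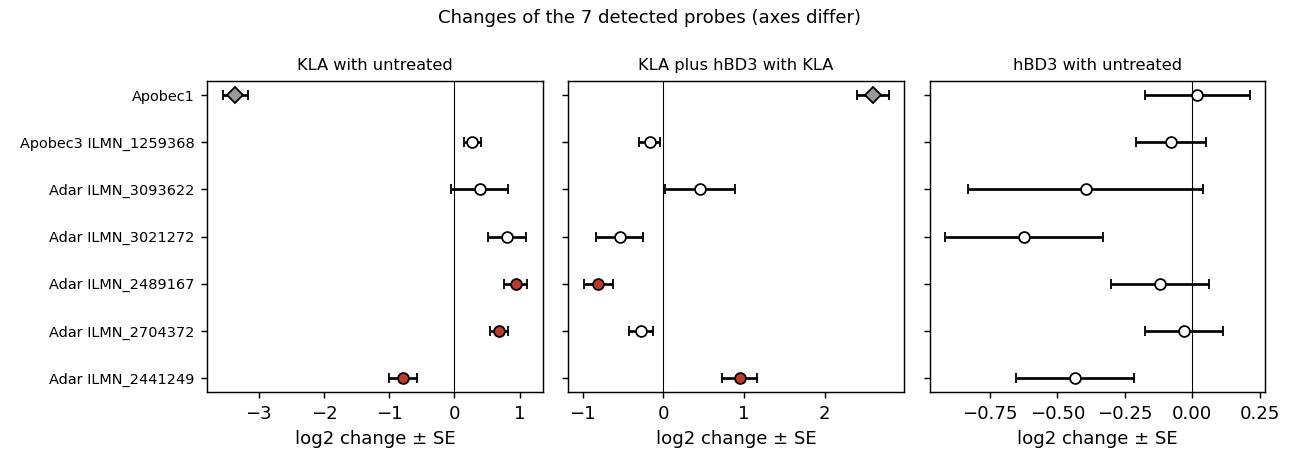
Log2 change ± SE (horizontal axes, which differ between panels) of the 7 probes detected in a whole group, in 3 panels, which compare KLA and untreated cells, KLA plus hBD3 and KLA, and hBD3 and untreated cells. Filled circles passed an adjusted p under 0.05, open circles did not, and grey diamonds mark Apobec1 where it was chosen for its change and was not tested. Apobec1 stands at -3.36, 2.60 and 0.02, and the Adar probes lie within -0.81 to 0.95 across the panels. ILMN_2441249 is drawn at its measured change, although its KLA level is only a bound.

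The calls on higher Adar signal with KLA were lost under another normalization. With each array centred on its median, the median change of all detected probes was -0.52 with KLA, against -0.06 after quantile normalization. On that scale ILMN_2489167 changed by 0.29 (adjusted p = 0.527), ILMN_2704372 by 0.01 (adjusted p = 0.984) and ILMN_3093622 by -0.28 (adjusted p = 0.794). All 3 were above the median of the detected probes, and none was called. ILMN_2489167 differed by -0.80 between KLA plus hBD3 and KLA on that scale (adjusted p = 0.193). Across the 12 arrays the 5 Adar probes correlated with each other at Pearson r of -0.45 to 0.80, a description over arrays that share treatments. The probes of 1 gene share their samples and are not replicates, and their sequences were not used here.

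The genes most like Apobec1 were found by Pearson r of log2 intensity over the 12 arrays, among 8270 other genes detected in all arrays of a group. The highest were Fam53a (r = 0.994), Zfp36l1 (r = 0.992) and Eepd1 (r = 0.990), followed by Nrp1, Fads1, Fcgr3, Lat2 and Cx3cr1, the last with r = 0.986. Zfp36l1 binds AU-rich elements and promotes decay of messenger RNA, and its log2 means were 11.58 with KLA plus hBD3, 8.21 with KLA, 12.46 with hBD3 and 12.29 in untreated cells. Cx3cr1, the fractalkine receptor of macrophages, had log2 means of 10.15 with KLA plus hBD3, 6.74 with KLA, 10.94 with hBD3 and 10.98 in untreated cells. Fcgr3, a low-affinity receptor for IgG, had 11.55, 10.34, 12.14 and 11.94 in the same groups. Fads1, a fatty acid desaturase, changed by -1.95 with KLA and Nrp1, a coreceptor for semaphorins, by -1.17, both smaller in size than the -3.36 of Apobec1. All 8 were lowest in KLA, intermediate with KLA plus hBD3 and near the untreated level with hBD3, as their selection by likeness to Apobec1 fixed.

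**Figure D4:**
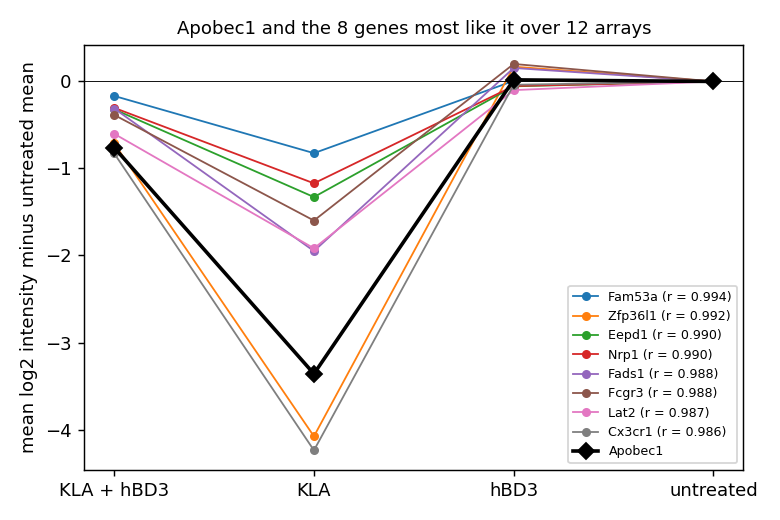
Mean log2 intensity minus the untreated mean (vertical axis) in the 4 groups (horizontal axis) for Apobec1 and the 8 genes with the highest Pearson r with it over 12 arrays. Lines only join the values of 1 gene, and the KLA values run from -4.24 for Cx3cr1 to -0.82 for Fam53a, with Apobec1 at -3.36.

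The likeness measure gave other genes for the other members. ILMN_1259368 of Apobec3 was most like E2f4 (r = 0.96), a transcription factor of the cell cycle. Among the Adar probes, ILMN_3093622 was most like Parp10 (r = 0.96), ILMN_2489167 most like N4bp2 (r = 0.96) with Hspa1a, an inducible heat shock protein, next, and ILMN_2441249 most like Ptpro (r = 0.93), a receptor tyrosine phosphatase. The first gene differed for each of the 5 Adar probes. Apobec1 itself correlated with the Adar probes at r of -0.89 to 0.58.

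Among the other deaminases, 2 of 16 genes with a probe were higher with KLA and 3 were lower, beside 9.7% and 11.6% of all genes, and the median log2 change of the list was 0.00 against 0.02 over all genes. Ampd3, an AMP deaminase of purine metabolism, rose with KLA by 1.63 ± 0.11 on the log2 scale (limma, adjusted p = 1.24e-06), with 3990 to 4183 in KLA arrays and 1107 to 1495 in untreated arrays. It was lower with KLA plus hBD3 than with KLA by -0.96 ± 0.11 (adjusted p = 0.000231). Adat3, a subunit of the enzyme that makes inosine in transfer RNA, changed by 0.52 ± 0.11 with KLA (adjusted p = 0.00496), which median centring reduced to 0.02 (adjusted p = 0.933). Ada, which deaminates adenosine, changed by -0.82 ± 0.22 (adjusted p = 0.0233). That call was lost without KLA replicate 3 (adjusted p = 0.0723) and without untreated replicate 2 (adjusted p = 0.0974). Cdadc1 and Adal had log2 changes of -0.38 and -0.34, and their calls were lost in 5 and 7 of the 12 fits that left out 1 array. Adat1, Adat2, Dctd and Ampd2 were detected and not called, with changes of -0.20, -0.11, 0.10 and 0.11. After median centring Adat1, Adat2 and Ampd2 were called lower with KLA, at -0.62, -0.81 and -0.61 (adjusted p = 0.00133 to 0.0420).

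Of 8 RNA-binding proteins that assist or bind APOBEC1, 1 was higher and 1 lower with KLA, beside 9.7% and 11.6% of all genes, and the median change was -0.12. Celf2, a splicing regulator, fell with KLA by 2.08 on the log2 scale, with 181 to 221 in KLA arrays against 741 to 1003 in untreated arrays (limma, adjusted p = 1.31e-06). It was higher with KLA plus hBD3 than with KLA by 1.20 ± 0.15 (adjusted p = 0.000298). Syncrip, an hnRNP that binds APOBEC1, changed by 0.83 ± 0.11 with KLA (adjusted p = 0.000162), against 0.20 after median centring (adjusted p = 0.653). Rbm47, a cofactor of APOBEC1 editing, measured 2439 to 2649 with KLA plus hBD3, 1744 to 2075 with KLA, 1518 to 2353 with hBD3 and 2065 to 4243 in untreated cells. Its change with KLA was -0.56 ± 0.23 (adjusted p = 0.166). A1cf, the cofactor of liver and intestine, was detected in 0 of 12 arrays.

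Of 19 genes whose transcripts are known as APOBEC1 targets in mouse intestine, 2 were higher and 4 lower with KLA, beside 9.7% and 11.6% of all genes, with a median change of 0.08. Apob was detected in 0 of 12 arrays. Rab1a, a GTPase of transport from the endoplasmic reticulum, measured 359 to 485 with KLA against 213 to 238 in untreated cells, a change of 0.89 ± 0.17 (limma, adjusted p = 0.00325) that was 0.23 after median centring (adjusted p = 0.423). Casp6, a caspase, changed by -0.63 ± 0.14 with KLA (adjusted p = 0.0106) and was 0.68 ± 0.14 higher with KLA plus hBD3 than with KLA (adjusted p = 0.0131). The second call was lost without KLA plus hBD3 replicate 3, where the difference was 0.58 (adjusted p = 0.0648), and after median centring, where it was 0.75 (adjusted p = 0.161). Cyp4v3, a fatty acid hydroxylase, changed by -0.59 ± 0.11 with KLA (adjusted p = 0.00243). These are levels of transcripts, and the arrays do not measure editing.

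Among 18 genes of double-stranded RNA sensing around ADAR, 7 were higher and 2 lower with KLA, beside 9.7% and 11.6% of all genes, and the median change was 0.15. Oasl1, an oligoadenylate synthetase-like protein, rose by 2.86 ± 0.23 on the log2 scale (limma, adjusted p = 3.91e-06) and was lower with KLA plus hBD3 than with KLA by -1.24 ± 0.23 (adjusted p = 0.00535). Zbp1, a sensor of Z-form nucleic acid that shares its binding domain with ADAR, changed by 1.57 ± 0.24 with KLA (adjusted p = 0.000689), and by 1.00 after median centring (adjusted p = 0.00643). Eif2ak2, the kinase PKR, which double-stranded RNA activates, changed by 1.15 ± 0.22 with KLA (adjusted p = 0.00302), and by 0.80 after median centring, where it was not called (adjusted p = 0.0977). Trim25, a ubiquitin ligase for RIG-I, measured 705 to 831 with KLA plus hBD3, 1742 to 2430 with KLA, 903 to 1013 with hBD3 and 785 to 997 in untreated cells. Its KLA arrays were above all others, and the groups of KLA plus hBD3 and untreated cells overlapped. The change was 1.24 ± 0.13 with KLA (adjusted p = 2.74e-05) and -1.41 ± 0.13 for KLA plus hBD3 against KLA (adjusted p = 3.78e-05). After median centring the first was 0.81 and no longer called (adjusted p = 0.0523). Prkra, an activator of PKR, changed by -1.16 ± 0.12 with KLA (adjusted p = 2.47e-05) and was 0.66 ± 0.12 higher with KLA plus hBD3 than with KLA (adjusted p = 0.00399), a difference that median centring left at 0.74 (adjusted p = 0.121). Ifih1, which encodes the sensor MDA5, was detected in 0 of 12 arrays.

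Of 16 interferon-stimulated genes, 10 were higher and 0 lower with KLA, beside 9.7% and 11.6% of all genes, and the median change was 0.95, against 0.51 after median centring. Detected in all arrays of a group were 14 of the 16, against 8271 of all 19057 genes, so the shares over all genes are not a like base. Cxcl10, a chemokine, changed by 3.55 ± 0.52 (limma, adjusted p = 0.000423) and Mx2, an antiviral GTPase, by 2.29 ± 0.30 (adjusted p = 0.000205). Between KLA plus hBD3 and KLA limma called 0 of the 16, where 5.85% of all genes were called higher and 4.97% lower. An unadjusted p under 0.05 was found there for 3 of the 16 and for 4043 of all 19057 genes. Isg15, a ubiquitin-like modifier, differed there by -1.06 ± 0.29 (adjusted p = 0.0516) and was called in 6 of 19 alternatives, the replicate block among them (adjusted p = 0.00293). Between these 2 groups, deviations of same-numbered arrays correlated at r of only 0.25, -0.012 and -0.066, so the block has little ground there. Rsad2, the antiviral protein viperin, differed by -0.69 ± 0.42, Mx2 by -0.48 ± 0.30 and Cxcl10 by -0.35 ± 0.52. Of the 9 genes of uracil repair in DNA, 1 was higher and 3 lower with KLA, and of 11 transcripts recoded by ADAR enzymes 2 were higher and 0 lower, beside 9.7% and 11.6% of all genes. Mbd4, a glycosylase of mismatched thymine and uracil, was not detected in 3 of 3 KLA arrays, with 50.8 to 60.1 against 108 to 134 in untreated arrays (adjusted p = 5.60e-05). After median centring, 3.68% of all genes were called higher and 22.2% lower with KLA. Of the 16 interferon-stimulated genes 5 were then higher and 0 lower, of the 18 sensing genes 2 were higher and 2 lower, and of the 19 APOBEC1 targets 0 were higher and 6 lower.

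**Figure D5:**
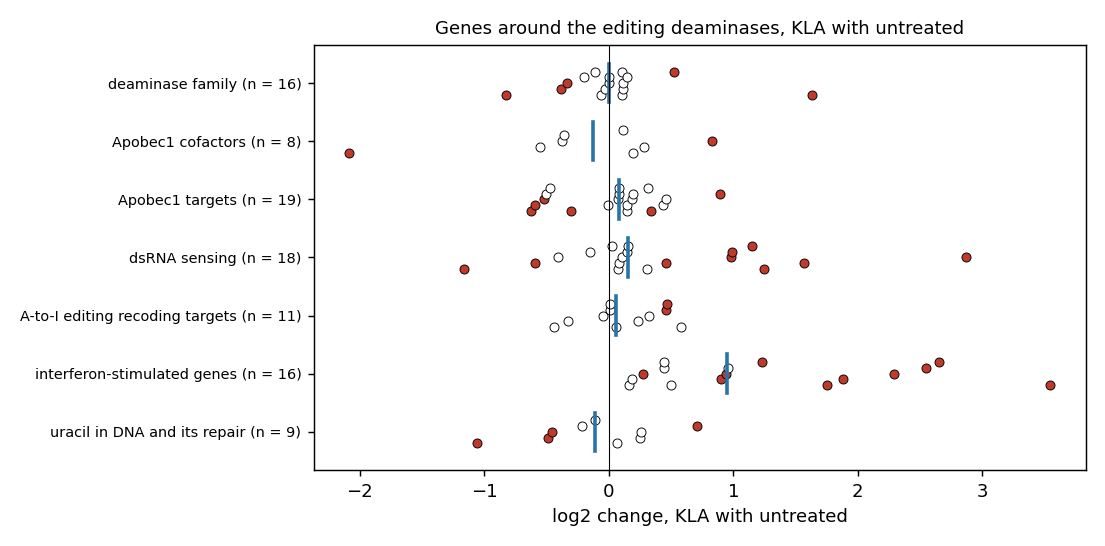
Log2 change of KLA with untreated (horizontal axis) for the genes of 7 lists, 1 point per gene by its brightest probe, filled where the adjusted p was under 0.05, with the list median as a blue bar. The interferon-stimulated genes lie furthest to the right, with a median of 0.95 and Cxcl10 at 3.55, and Celf2 lies furthest to the left at -2.08. Genes not detected in a group, such as Mbd4 in KLA, are drawn at their measured change.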

How the data were processed

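RNA of 12 BMDM samples was hybridised to Illumina MouseWG-6 BeadChips. The deposited table before normalization holds linear probe intensity that the authors exported from BeadStudio. The deposited table sets a detection p-value beside each value. The authors then made the deposited normalized intensity values by quantile normalization across arrays. Versions of their tools are not given in the sources used here, and which array lay on which BeadChip was not known, so no chip effect was fitted. All 12 columns of the table before normalization, quantile normalized here, equalled a sample of the normalized table for 100% of probes within 0.1%.

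Log2 of the normalized intensity of 45281 probes was fitted by group means with limma 3.58.1 in R 4.3.3 (8 residual and 3.66 prior degrees of freedom). Tests were two-sided, with Benjamini-Hochberg adjustment over all probes of a comparison and a call at an adjusted p under 0.05. The interaction compares the hBD3 effect in KLA-treated cells with that in resting cells. A probe was detected at a detection p under 0.01, and each list gene was read from its brightest probe. Of the probes, 34885 named 1 gene, 18 several and 10378 none. A level under detection was bounded by the lowest detected signal of each array. The number of arrays limits the precision.

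The members and lists were chosen with earlier results of these data known. Named genes were all member probes, every detected gene of the deaminase list, up to 4 genes per other list with the largest called change, and the genes most like each member by Pearson r; Eif2ak2, Rbm47, A1cf, Apob and Ifih1 were added for their roles after their values were seen. Promoter windows came from RefSeq on GRCm38.p6. The fit was tested on simulated data. Deviations of same-numbered arrays from their group means correlated at r of 0.27 to 0.71 in 9 of 9 pairs among KLA, hBD3 and untreated cells, above 0.1 in each. In the 9 pairs with KLA plus hBD3 r was -0.066 to 0.28, above 0.1 in 3. Differently numbered arrays passed 0.1 in 9 of 36 pairs, 6 of them among KLA, hBD3 and untreated cells. Those 6 joined replicates 1 and 2, at r of 0.21 to 0.44. In the same groups, replicate 3 against another number gave -0.62 to -0.30. The correlations thus set replicate 3 apart. For replicates 1 and 2, same-numbered arrays of these groups correlated at r of 0.27 to 0.59. In each pair of groups this was above the r of their differently numbered arrays. The values lean to pairing among KLA, hBD3 and untreated cells, but rest on few arrays and do not settle it. The legend of the study does not say whether treatments shared mice, and no label ties a number to a mouse. The first fit ignores any pairing, and the replicate block was run as an alternative. Alternatives were median centring, neqc, quantile normalization repeated here, detected probes only, a replicate block, each array left out, KLA replicate 1 alone as KLA, no replicate 3 arrays of 3 groups, and only the groups compared.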

Additional observations from a re-analysis of the deposited data

Results flagged for a closer look

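For 3 results the effect of hBD3 differed between KLA-treated and resting BMDM by the test of the interaction itself, beside 3.41% of all probes called in that test. Celf2 and Trim25 were named for large called changes in comparisons that share arrays with the interaction. For these genes the interaction values are a description, and the share over all probes is not a like base. For Adar probe ILMN_2441249 the difference was 1.38 ± 0.31 on the log2 scale (limma, adjusted p = 0.0311), with a KLA level that is only a bound, and this call was lost in 7 of the 12 fits that left out 1 array (adjusted p = 0.0580 to 0.0779), those without any 1 of the KLA plus hBD3 replicates, KLA replicates 1 and 3, and untreated replicates 1 and 2. It was also lost after median centring, at 1.37 (adjusted p = 0.151), and with neqc, at 2.37 (adjusted p = 0.0536). For Celf2 it was 1.13 ± 0.21 (adjusted p = 0.0105), and after median centring 1.49 (adjusted p = 0.0896). For Trim25 it was -1.56 ± 0.18 (adjusted p = 0.000674), and after median centring -1.46 (adjusted p = 0.108). In the same test the other Adar probes had values of -0.69 to 0.85 and none was called.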

How the results depend on the processing

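Quantile normalization repeated here gave the same values as the deposited table. No alternative turned the sign of Apobec1 with KLA, which ran from -3.72 to -3.30, or of KLA plus hBD3 against KLA, which ran from 2.33 to 2.81. Apobec1 was chosen for its values in these comparisons of the same arrays, so its kept signs are a description and no measure of stability. In all, 36 of 812 alternative values of single probes had another sign than the first fit, and 0 of those 36 were called in either fit. The causes were not tested. Many of the 812 could not change, so 36 of 812 is no measure of stability. The repeated quantile normalization, detected probes only, the replicate block and only the groups compared leave each log2 change as it was. So does leaving out an array of a group not compared.

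With median centring Apobec1 changed by -3.72 with KLA, by -1.24 with KLA plus hBD3 and by -0.12 with hBD3, each against untreated cells, and by -1.12 for KLA plus hBD3 against hBD3. Of the 8 other probes, 1 was called for KLA against untreated cells, 0 for KLA plus hBD3 against KLA and 0 in the interaction, which neqc also gave as 0. Signs turned for KLA against untreated cells in Apobec3 ILMN_1259368 (-0.20) and Adar ILMN_3093622 (-0.28). For KLA plus hBD3 against untreated cells they turned in ILMN_1259368 (-0.24) and in the Adar probes ILMN_3021272 (-0.39), ILMN_2489167 (-0.51), ILMN_2704372 (-0.21) and ILMN_2441249 (-0.25). They also turned for ILMN_2489167 against hBD3 (-0.091), and in the interaction for ILMN_1259368 (0.22) and ILMN_2704372 (0.090). Over all probes, 8509 were called for KLA against untreated cells, 15% of them higher, against 6717 and 46.1% in the first fit. For KLA plus hBD3 the counts were 6180 and 5.23% against 1986 and 44.7% for untreated cells, 1216 and 44.2% against 3165 and 50.1% for KLA, and a share of 10.6% against 40.9% for hBD3. The interaction had 425 calls, 60.5% higher, against 1542 and 48.8%, and hBD3 had 0 against 2. With neqc, Adar ILMN_2441249 moved to -1.37 for KLA against untreated cells, 1.65 for KLA plus hBD3 against KLA and 2.37 in the interaction, from -0.79, 0.95 and 1.38.

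With KLA replicate 1 alone as KLA, whose spread is then taken from the other groups, 1 of the 8 probes was called for KLA against untreated cells, 1 for KLA plus hBD3 against KLA and 0 in the interaction, and calls over all probes were 4380, 1763 and 984. Signs turned for KLA plus hBD3 against KLA in ILMN_1259368 (0.059) and ILMN_3093622 (-0.22), and in the interaction in ILMN_1259368 (0.14) and ILMN_3021272 (-0.13). Without the replicate 3 arrays of KLA, hBD3 and untreated cells, KLA plus hBD3 had 1 called probe against untreated cells and 2 against hBD3. Calls over all probes were 2748 and 2853 in these comparisons, and 53 for hBD3 against untreated cells. Signs turned for ILMN_2441249 in KLA plus hBD3 against untreated cells (-0.055), ILMN_2489167 with hBD3 (0.032), ILMN_3093622 in KLA plus hBD3 against KLA (-0.13), and in the interaction for ILMN_1259368 (0.13), ILMN_3093622 (-0.041) and ILMN_3021272 (-0.12). With only the groups compared in the fit, KLA plus hBD3 had 1 call each against untreated cells, KLA and hBD3. Over all probes the calls were 2233, 2993 and 2803. Over detected probes only, ILMN_3021272 was called with KLA (adjusted p = 0.0447).

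A fit with the replicate block called 4 of the 8 probes for KLA against untreated cells, adding ILMN_3021272 (adjusted p = 0.00963). It called 3 for KLA plus hBD3 against hBD3. Over all 45281 probes it called 7823 and 3580 in these comparisons, 3065 for KLA plus hBD3 against untreated cells and 15 for hBD3. For KLA plus hBD3 the numbers showed little pairing, so its blocked calls have little ground.

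Leaving out 1 array at a time, Apobec1 ran from -3.46 to -3.30 for KLA, from -1.03 to -0.55 for KLA plus hBD3 and from -0.059 to 0.097 for hBD3, each against untreated cells. It ran from 2.33 to 2.81 for KLA plus hBD3 against KLA, from -1.05 to -0.57 against hBD3 and from 2.31 to 2.79 in the interaction, and the extremes came without replicate 3 or 2 of KLA plus hBD3 for the values of that group. Of the 8 probes, 2 to 3 were called for KLA, 0 to 2 for KLA plus hBD3 against KLA, 0 to 1 against hBD3 and 0 to 1 in the interaction. Ranges crossing 0 were, for KLA plus hBD3 against untreated cells, -0.0050 to 0.66 in ILMN_3021272, -0.077 to 0.27 in ILMN_2489167 and -0.055 to 0.32 in ILMN_2441249. With hBD3 they were -0.61 to 0.021 in ILMN_3093622, -0.23 to 0.013 in ILMN_2489167 and -0.17 to 0.12 in ILMN_2704372. For KLA plus hBD3 against KLA the range was -0.13 to 0.79 in ILMN_3093622, and in the interaction -0.31 to 0.35 in ILMN_3021272 and -0.21 to 0.038 in ILMN_1259368. Over all probes, calls for KLA plus hBD3 against untreated cells were 888 to 2522 of 45281. Dim probes such as those of Apobec3, Adarb1 and ILMN_2441249 sit near the detection limit, where small changes cannot be read.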
